A study of Mus musculus with 33 samples.

Results

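The genes described here are 39 genes of glucose uptake, glycolysis, lactate handling, pyruvate oxidation and the pentose phosphate branch, with the hypoxia factor Hif1a. They were taken by symbol from the 37583 gene IDs in the count files, each matched 1 ID, and all 39 were measured well enough to be tested. The study sequenced RNA of mouse cells on their way from embryonic fibroblasts to induced pluripotent stem (iPS) cells, with 33 libraries in 11 groups of 3. The starting group was mouse embryonic fibroblasts (MEFs). The others were cells of days 3, 6, 9 and 12 of reprogramming and iPS cells, each split by cell sorting into a fraction without (SSEA1-) and a fraction with (SSEA1+) the surface sugar antigen SSEA1, which reprogramming cells gain. All cells were of the strain 129SV/Jae/C57BL6J, were taken off the dish with trypsin and were sorted. MEFs were kept in MEF media and reprogramming ran in ES media with dox and AA, as the labels write them, so in every comparison with MEF the medium and reprogramming cannot be told apart. The labels do not say how the factors were delivered, whether a line is 1 clone, or whether the replicates of a group are different cultures or different animals. The p-values therefore describe the scatter among these libraries only, which may be technical.

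Glycolysis splits glucose to pyruvate in the cytosol. Glucose enters through transporters, hexokinase traps it, phosphofructokinase sets the pace, and aldolase, enolase and pyruvate kinase act further down. Pyruvate is then reduced to lactate, which leaves through monocarboxylate transporters, or enters mitochondria, where the pyruvate dehydrogenase complex oxidises it unless pyruvate dehydrogenase kinases switch the complex off. Many of these steps have isoforms from separate genes with their own tissue pattern, and pluripotent stem cells are known for a high rate of glycolysis.

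Levels are given as CPM, the usual depth-scaled read count, with library sizes scaled by edgeR's trimmed mean of M-values (TMM), given for replicates 1, 2 and 3 in that order. The words rose and fell are used where edgeR's quasi-likelihood test over all 17326 tested genes gave a Benjamini-Hochberg adjusted p under 0.05 (below, "edgeR adjusted p") and a change of at least 2-fold. Changes are log2 differences with an approximate standard error (SE). It was worked back from the test, as the size of the change divided by the square root of the F statistic.

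Libraries held between 8927873 and 41690795 counts in genes, so that 3 counts corresponded to 0.072 to 0.336 CPM. All 7 fibroblast markers (Col1a1, Col1a2, Col3a1, Thy1, Postn, Fbn1 and Pdgfra) summed to 78400 to 85500 CPM in MEF and to 37.2 to 233 CPM in iPS SSEA1+ cells. The 7 pluripotency markers (Nanog, Esrrb, Zfp42, Dppa5a, Utf1, Pou5f1 and Sox2) summed to 7.07 to 13.4 CPM in MEF and to 3770 to 5410 CPM in iPS SSEA1+ cells. Among iPS SSEA1- libraries, replicate 3 stood apart with a mean pluripotency score (log2 of CPM plus 1) of 8.08, against 3.8 and 4.88. MEF replicate 1 stood apart in its cell cycle markers, with a score of 7.58 against 6.2 and 6.24. Replicate 2 of MEF and of each SSEA1- group held the most macrophage marker RNA of its group, up to 530 CPM summed over 7 markers in the iPS SSEA1- group. In bulk RNA, fewer cells of a type and less RNA per cell cannot be told apart.

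As a group the 39 genes took the smallest share of all counts in the middle of reprogramming and the largest in iPS SSEA1+ cells. MEF libraries gave 1.85%, 1.08% and 1.29% of counts to them. The day 6 SSEA1- libraries gave 0.703%, 0.694% and 0.68%, below all 3 MEF libraries. The share in SSEA1+ cells averaged 1.1% ± 0.0969 (SD, n = 3) on day 3, 0.909% ± 0.0636 on day 6, 1.16% ± 0.0842 on day 9 and 1.62% ± 0.0967 on day 12. The iPS SSEA1+ libraries gave 1.99%, 2.86% and 2.93%, above every MEF library, while iPS SSEA1- libraries gave 0.936%, 0.984% and 1.71%, the last from the library that stood apart. By group means, 16 of the 39 genes were highest in iPS SSEA1+ cells and 11 in MEF, and none in the SSEA1+ fraction of days 6, 9 or 12. The share of all genes that peaked in each group was not computed. These counts therefore do not set the 39 genes apart from other genes.

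**Figure D1:**
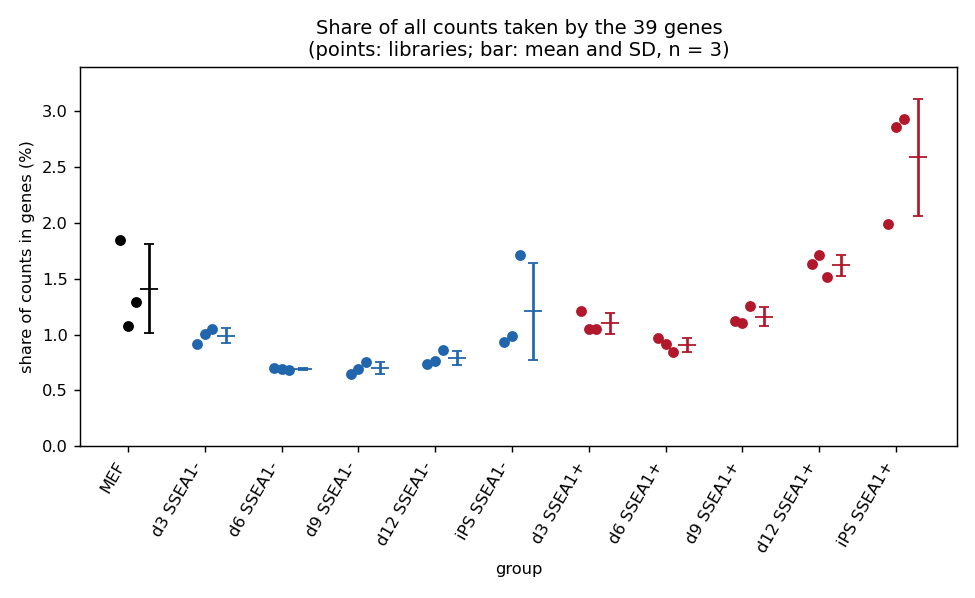
The vertical axis gives the percent of each library's counts in genes that fell in the 39 genes, by group; points are libraries and bars the mean and SD of 3. The day 6 SSEA1- libraries lie between 0.68% and 0.703%, and the iPS SSEA1+ libraries between 1.99% and 2.93%.

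Against MEF, more of the genes fell than rose in SSEA1+ cells of every day of reprogramming, and in iPS SSEA1+ cells more rose than fell. In SSEA1+ cells of day 3, 4 rose and 13 fell, where 15.6% of all tested genes rose and 16.7% fell. On day 6, 3 rose and 17 fell, against 16.9% and 16.6% of all genes. On day 9, 3 rose and 16 fell, against 20.6% and 18%. Day 12 had 5 that rose and 10 that fell, against 26.5% and 20.2%, and iPS SSEA1+ cells had 10 and 3, against 27.9% and 22.5%. With DESeq2's size factors in edgeR the split of day 3 was 3 and 20, and with a GC trend removed that of iPS SSEA1+ cells was 7 and 6. The counts that fell on days 3 to 9 are thus larger than the background shares would give in 39 genes, the counts that rose on days 3 to 12 smaller, and the 10 that rose in iPS SSEA1+ cells near it. The median change of the 39 genes went from -0.85 on day 3 through -0.76, -0.62 and -0.22 to 0.3 in iPS SSEA1+ cells, while the median of all tested genes lay between 0.09 and 0.26. DESeq2's size factors moved the median of all genes by -0.12 on day 3, -0.14 on day 6 and -0.12 on day 9, and that of the members there to -1.04, -0.9 and -0.74.

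In SSEA1- cells more members fell than rose on each of the 4 days. On day 3, 3 genes rose and 10 fell against MEF, where 15.3% and 14.9% of all tested genes did. On day 6 it was 5 and 15, against 15.8% and 12.4%, and on day 9 again 5 and 15, against 14.9% and 11.6%. Day 12 had 4 that rose and 14 that fell, against 17% and 11.1%, and iPS SSEA1- cells had 4 and 5, against 19.1% and 7.7%. The day 6 split was 2 and 15 with DESeq2's size factors. In iPS SSEA1- cells it turned to 5 and 4 without a filter on low counts and to 4 and 2 in a fit of the 2 groups alone, and was 4 and 11 with the GC trend removed. The median change of the members was -0.68, -0.59, -0.59, -0.52 and -0.15 in this order, and that of all tested genes 0.07, 0.13, 0.09, 0.12 and 0.19. All genes shifted with GC content here, on day 3 from a median of 0.43 under 45% GC to -0.93 over 60%. The iPS SSEA1- count of 9 rests on single libraries: it became 17 without replicate 3 of that group, 7 without MEF replicate 1, and 14 without MEF replicate 2 or MEF replicate 3. With MEF replicate 1 and iPS SSEA1- replicate 3 both left out, the counts called from day 3 to iPS were 16, 18, 15, 14 and 14 in SSEA1+ cells and 13, 18, 17, 16 and 16 in SSEA1- cells. With replicate 2 of every group left out they were 17, 18, 17, 15 and 11 in SSEA1+ cells and 14, 16, 17, 19 and 6 in SSEA1- cells. These 10 comparisons share the 3 MEF libraries, and the sorted groups are given side by side.

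**Figure D2:**
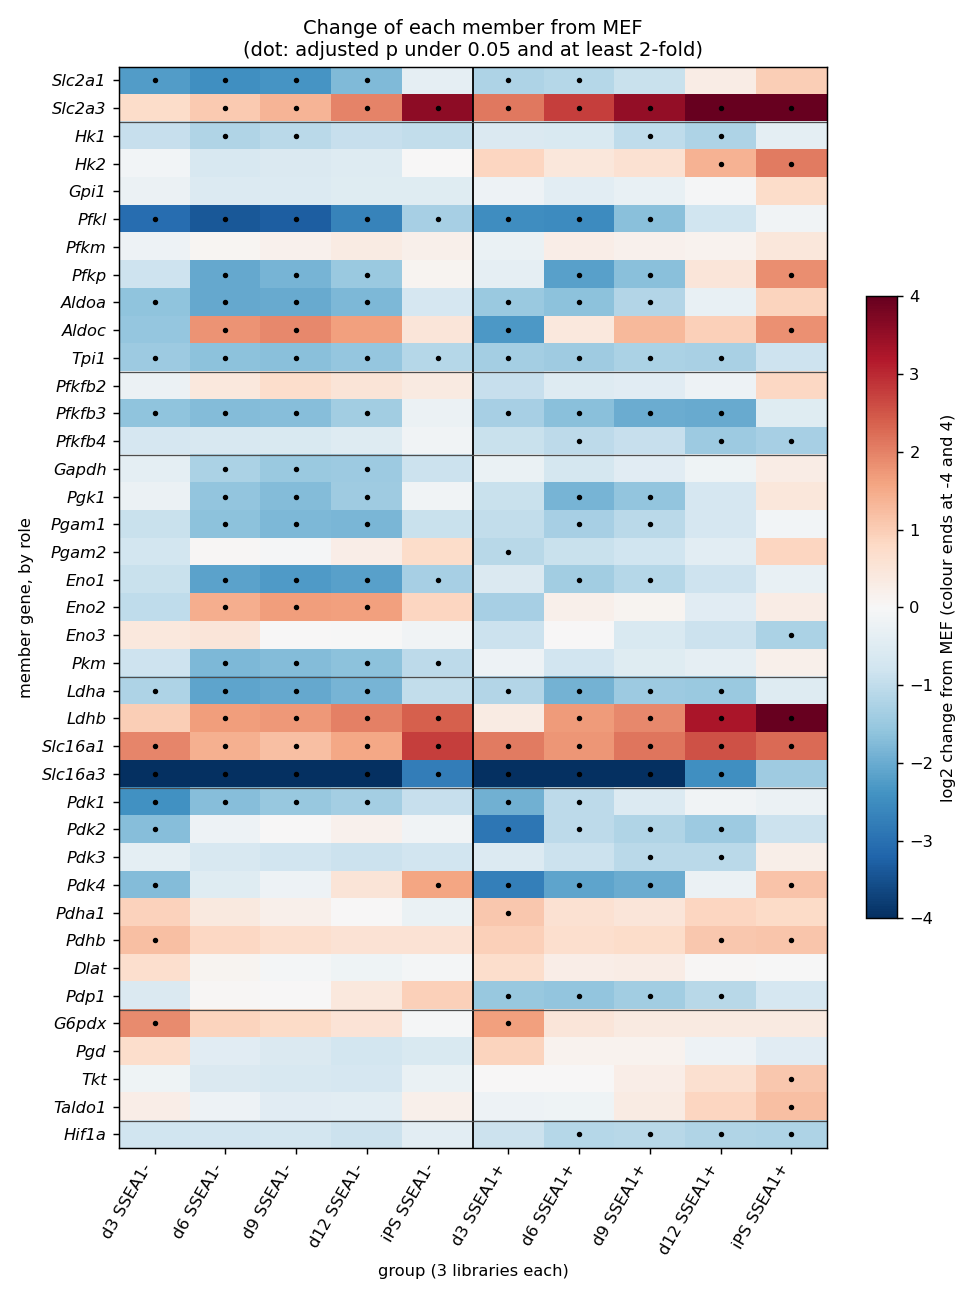
Each cell is the log2 change of a gene from MEF in a group of 3 libraries, genes by role from top to bottom, with colours ending at -4 and 4; dots mark genes that rose or fell by the test. The column of iPS SSEA1+ cells holds 10 rises and 3 falls, and Slc16a1 is marked as a rise in all 10 columns.

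Of the glucose transporters, Slc2a3 (GLUT3, a high-affinity transporter) took the place of Slc2a1 (GLUT1, the widespread one) as the more abundant. Slc2a3 had 92.3, 29.2 and 40.1 CPM in MEF, then in SSEA1+ cells 278, 200 and 217 on day 3, 501, 295 and 292 on day 6, and 699, 520 and 651 on day 9. It reached 1520, 1190 and 928 CPM on day 12 and 1650, 2090 and 2350 in iPS SSEA1+ cells. Every SSEA1+ library was above every MEF library. The log2 change from MEF was 2.1 ± 0.35 (SE) on day 3, 2.75 ± 0.36 on day 6, 3.53 ± 0.38 on day 9, 4.49 ± 0.39 on day 12 and 5.23 ± 0.41 in iPS SSEA1+ cells, the last 37.6-fold (edgeR adjusted p = 8e-11). In SSEA1- cells Slc2a3 was lower, at 115, 76.9 and 76.6 CPM on day 3, 138, 79.2 and 119 on day 6, 154, 90.1 and 171 on day 9, 283, 184 and 173 on day 12 and 456, 744 and 755 in the iPS fraction. There it rose from day 6 on, by 1.05 ± 0.34 on day 6 (edgeR adjusted p = 0.016), 1.35 ± 0.35 on day 9, 1.98 ± 0.35 on day 12 and 3.59 ± 0.38 in iPS SSEA1- cells (edgeR adjusted p = 2.3e-07). Without MEF replicate 1 the changes were 5.83 in iPS SSEA1+ cells and 2.57 on day 12 in SSEA1- cells. The day 6 call ended without MEF replicate 2, MEF replicate 3 or day 6 SSEA1- replicate 1, where its change was as small as 0.67.

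Slc2a1 had 683, 276 and 340 CPM in MEF. In SSEA1+ cells it had 206, 154 and 187 CPM on day 3, 325, 177 and 93.2 on day 6 and 247, 199 and 249 on day 9, then 634, 503 and 463 on day 12 and 640, 809 and 1090 in the iPS fraction. It thus dipped and came back: it fell on day 3 (-1.25 ± 0.36, edgeR adjusted p = 0.0064) and day 6 (-1.13 ± 0.36), both of which calls ended without MEF replicate 1 and the second also without day 6 SSEA1+ replicate 3. On day 12 and in iPS SSEA1+ cells it was 0.3 ± 0.36 and 0.97 ± 0.36 from MEF, neither a call. In SSEA1- cells it had 64.6, 103 and 108 CPM on day 3, 88.4, 94.9 and 55.2 on day 6, 71.2, 107 and 73.6 on day 9, 118, 127 and 136 on day 12 and 230, 281 and 502 in the iPS fraction. It fell there on all 4 days, most on day 6 (-2.45 ± 0.38, edgeR adjusted p = 1.6e-05). Per kilobase of exon, Slc2a1 stood at 133 CPM and Slc2a3 at 13.6 in MEF, and at 260 and 513 in iPS SSEA1+ cells.

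The 2 hexokinases moved in opposite directions in SSEA1+ cells of day 12. Hk1, the housekeeping hexokinase, had 311, 191 and 246 CPM in MEF and 97.3, 99.7 and 122 on day 12 in SSEA1+ cells, where it fell by 1.23 on the log2 scale (SE 0.24, edgeR adjusted p = 0.00011). Hk2, the inducible hexokinase of growing cells, had 186, 139 and 94.4 CPM in MEF, 452, 362 and 275 in SSEA1+ cells of day 12 and 417, 667 and 690 in iPS SSEA1+ cells. Both late SSEA1+ groups lay above all MEF libraries. Hk2 rose by 1.38 ± 0.34 on day 12 and by 2.08 ± 0.35 in iPS SSEA1+ cells (edgeR adjusted p = 1.1e-05). It passed the test in no SSEA1- group against MEF, where its change lay between -0.65 on day 6 and 0.02 in the iPS fraction, whose libraries had 76, 88.1 and 261 CPM, the highest being replicate 3.

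Phosphofructokinase, the committed step, has a liver (Pfkl), a muscle (Pfkm) and a platelet (Pfkp) form. Pfkl had 748, 465 and 504 CPM in MEF, and in SSEA1- cells 51.3, 83.4 and 70.6 on day 3, 40.8, 70.1 and 52 on day 6, 38, 71.9 and 65.9 on day 9, 64.1, 91 and 113 on day 12 and 164, 129 and 386 in the iPS fraction. In SSEA1+ cells it had 105, 94.9 and 102 CPM on day 3, 103, 99.4 and 99.3 on day 6, 151, 160 and 234 on day 9, 309, 369 and 309 on day 12 and 403, 602 and 555 in the iPS fraction. No sorted library of days 3 to 12 reached the lowest MEF library, and the iPS SSEA1+ libraries overlapped MEF. Pfkl fell 10.5-fold on day 6 in SSEA1- cells (-3.4 ± 0.34, edgeR adjusted p = 4.9e-08) and fell in all 5 SSEA1- groups. In SSEA1+ cells it fell on day 3 (-2.5 ± 0.33), day 6 (-2.51 ± 0.33) and day 9 (-1.66 ± 0.32), and was -0.14 ± 0.31 from MEF in the iPS fraction.

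Pfkp followed another course. It had 201, 173 and 160 CPM in MEF and 136, 137 and 140 on day 3 in SSEA1+ cells. It dropped to 26.4, 46 and 46 on day 6 and 31.6, 69.6 and 65 on day 9, and came to 196, 307 and 243 on day 12 and 294, 837 and 813 in the iPS fraction. It is 1 of 3 genes that fell at some SSEA1+ stages and rose at another against MEF, with Aldoc and Pdk4: -2.17 ± 0.39 on day 6 (edgeR adjusted p = 6.3e-05) and 1.86 ± 0.39 in iPS SSEA1+ cells (edgeR adjusted p = 0.00017). In SSEA1- cells it had 103, 101 and 94.9 CPM on day 3, 42.5, 50.2 and 37.6 on day 6, 44.9, 59.9 and 41.1 on day 9, 53.6, 78 and 56.8 on day 12 and 104, 114 and 356 in the iPS fraction. Pfkm stayed between 33.8 and 107 CPM in all 33 libraries and passed the test in no comparison. Gpi1, the isomerase before phosphofructokinase, passed it against MEF in none of the 10 groups.

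Among the splitting enzymes, Aldoa, the ubiquitous aldolase, had 2740, 1850 and 2170 CPM in MEF, 833, 707 and 611 in SSEA1+ cells of day 6, 1770, 1960 and 1720 on day 12 and 3610, 5000 and 4030 in the iPS fraction. In SSEA1- cells it had 456, 685 and 507 CPM on day 6, 401, 692 and 581 on day 9 and 469, 732 and 762 on day 12. It fell to about the same low level in both fractions at day 6, by 1.65 ± 0.3 in SSEA1+ cells and by 2.04 ± 0.3 in SSEA1- cells on the log2 scale (edgeR adjusted p = 6.8e-05 and 1.1e-05). In iPS SSEA1+ cells it was higher than in every MEF library, yet at 0.9 ± 0.29 under 2-fold. Aldoc, the brain aldolase, had 19.6, 6.42 and 27.4 CPM in MEF and 1.08, 4.71 and 5.17 in SSEA1+ cells of day 3, where it fell (-2.3 ± 0.76, edgeR adjusted p = 0.016). It had 13.8, 78.1 and 91.6 CPM in SSEA1- cells of day 6 and 28.3, 122 and 51.2 on day 9, where it rose by 1.79 ± 0.73 and 1.92 ± 0.73, and 36.9, 97.7 and 56.3 in iPS SSEA1+ cells, where it rose by 1.84 ± 0.73. All 4 calls on Aldoc rest on single libraries: that of day 3 ended without MEF replicate 3 (-1.95) or day 3 replicate 1 (-1.89), and the 3 rises ended without MEF replicate 1 or 2 or replicate 2 of the group itself. Without MEF replicate 2 the rises were 1.28, 1.46 and 1.41, and without day 9 SSEA1- replicate 2 that of day 9 was 1.18. That of day 6 also ended without MEF replicate 3 (2.13) or its own replicate 3 (1.38).

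Tpi1, which interconverts the triose phosphates, fell early and stayed down. It had 1380, 739 and 906 CPM in MEF, 395, 392 and 385 in SSEA1+ cells of day 3, 336, 412 and 381 on day 6, 392, 427 and 421 on day 9 and 325, 458 and 433 on day 12. In SSEA1- cells it had 280, 415 and 409 CPM on day 3, 277, 360 and 338 on day 6, 260, 356 and 339 on day 9, 284, 343 and 404 on day 12 and 384, 441 and 542 in the iPS fraction. None of these libraries reached the MEF range. The change lay between -1.28 ± 0.23 (day 9) and -1.42 ± 0.23 (day 6) in SSEA1+ cells and between -1.14 ± 0.23 (iPS) and -1.66 ± 0.23 (day 9) in SSEA1- cells, all calls, of which the one in iPS SSEA1- cells ended without MEF replicate 1 (-0.92). The iPS SSEA1+ libraries, with 373, 617 and 718 CPM, differed from MEF by -0.82 ± 0.23, under 2-fold.

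Fructose 2,6-bisphosphate, the strongest activator of phosphofructokinase, is made and removed by the Pfkfb enzymes. Of the 3 members, none rose against MEF in any group. Pfkfb3 had 181, 68.6 and 89.5 CPM in MEF and 27, 22.5 and 34.8 on day 12 in SSEA1+ cells, and it fell on all 4 days in both fractions, by 2.01 ± 0.38 on day 12 in SSEA1+ cells (edgeR adjusted p = 7.8e-05). The call ended without MEF replicate 1 on day 3 in SSEA1+ and on day 12 in SSEA1- cells. Pfkfb4 had 10.5, 12.5 and 11.4 CPM in MEF, 4.51, 3.91 and 4.2 in SSEA1+ cells of day 12 and 4.73, 3.12 and 5.82 in iPS SSEA1+ cells, without overlap with MEF. It fell by 1.44 ± 0.25 and 1.33 ± 0.25 there (edgeR adjusted p = 2.8e-05 and 6.4e-05). Pfkfb2 passed the test against MEF nowhere.

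In lower glycolysis, from Gapdh to pyruvate kinase, the main isoforms moved together in SSEA1- cells. Of the 8 genes, 5 fell and 1 rose against MEF on each of days 6, 9 and 12. Of all tested genes, 12.4%, 11.6% and 11.1% fell on those days and 15.8%, 14.9% and 17% rose. On day 3 none of the 8 rose or fell by edgeR, where 15.3% of all genes rose and 14.9% fell. At an unadjusted p under 0.05, 0 were higher and 3 lower that day, and DESeq2 called 0 and 2. That day Pgam1 (-0.9 ± 0.26) and Eno1 (-0.88 ± 0.34) had an edgeR adjusted p of 0.0069 and 0.036 at under 2-fold. The 5 that fell on day 9 were Gapdh, Pgk1, Pgam1, Eno1 and Pkm. Eno1, the widespread enolase, had 2930, 1740 and 1810 CPM in MEF, 350, 486 and 496 in SSEA1- cells of day 9 and 483, 520 and 1590 in iPS SSEA1- cells. It fell by 2.28 ± 0.35 on day 9 and by 1.32 ± 0.34 in iPS SSEA1- cells (edgeR adjusted p = 1.6e-05 and 0.0035). The latter was -2.1 without iPS SSEA1- replicate 3. Pgam1, a phosphoglycerate mutase, had 310, 185 and 179 CPM in MEF and 57, 67.4 and 66.3 on day 12 in SSEA1- cells, a fall of 1.82 ± 0.27 (edgeR adjusted p = 1e-05). Gapdh and the pyruvate kinase gene Pkm passed the test against MEF in no SSEA1+ group, with Pkm at 4400, 2250 and 2670 CPM in MEF and 2380, 3620 and 4610 in iPS SSEA1+ cells. Counts are per gene and do not tell splice forms of Pkm apart.

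The gene of this group that rose in SSEA1- cells was Eno2, the neuronal enolase. It had 11.2, 19.6 and 24.1 CPM in MEF, 56.9, 52.1 and 40.3 on day 6, 62.1, 54.3 and 56.6 on day 9 and 65.1, 50.4 and 54.8 on day 12, above all MEF libraries. The change was 1.45 ± 0.58, 1.67 ± 0.58 and 1.64 ± 0.58 (edgeR adjusted p = 0.046, 0.026 and 0.026), and each call ended without MEF replicate 1 (1.09, 1.33 and 1.32), MEF replicate 2 or replicate 1 of the group itself. The day 6 call ended whichever of the 6 libraries was left out, and that of day 9 also without its replicate 3. In the same comparisons 15.8%, 14.9% and 17% of all tested genes rose and 12.4%, 11.6% and 11.1% fell. Of 7 neuron markers, 3 rose and 1 fell on days 6 and 9 and 5 rose and 1 fell on day 12. Their summed CPM was 104 to 168 in MEF, 61.3 to 376 on day 6, 90.7 to 215 on day 9 and 114 to 185 on day 12. Their part was not tested. Eno3, the muscle enolase, had 30.9, 23.9 and 20.3 CPM in MEF and 11.4, 7.02 and 12.9 in iPS SSEA1+ cells, and fell there by 1.27 ± 0.34 (edgeR adjusted p = 0.002). Of 5 tested skeletal muscle markers, 2 rose and 2 fell there, where 27.9% and 22.5% of all genes did. The muscle markers summed to 87.7 to 381 CPM in MEF and 63 to 131 in iPS SSEA1+ cells, and their part was not tested. Per kilobase of exon, Eno1 stood at 849 CPM in MEF, against 6.54 for Eno2 and 16 for Eno3.

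The lactate genes come in pairs, and their 4 promoters are shown because from day 6 on the 2 genes of each pair moved in opposite directions in both fractions up to day 12. The windows are the 250 bases before the first-listed start of each gene, from RefSeq's GRCm38.p6 tables, on the strand of the gene. Other starts of a gene were not looked at, and which start these cells use is not known here. The counts themselves were made on mm9, so these coordinates belong to the reference only. Capitals mark ACGTG (the core of the hypoxia response element) and GCGTG on either strand, so that CACGT and CACGC appear for the reverse strand. Ldha lies at chr7:46845554-46845803 on the plus strand, Ldhb at chr6:142507958-142508207 on the minus strand, Slc16a1 at chr3:104638414-104638663 on the plus strand and Slc16a3 at chr11:120948817-120949066 on the plus strand.
Ldha: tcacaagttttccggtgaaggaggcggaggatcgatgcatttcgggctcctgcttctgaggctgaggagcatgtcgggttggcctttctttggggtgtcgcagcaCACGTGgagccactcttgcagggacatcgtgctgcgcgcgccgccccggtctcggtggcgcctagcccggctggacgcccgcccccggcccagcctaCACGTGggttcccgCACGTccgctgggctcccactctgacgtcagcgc
Ldhb: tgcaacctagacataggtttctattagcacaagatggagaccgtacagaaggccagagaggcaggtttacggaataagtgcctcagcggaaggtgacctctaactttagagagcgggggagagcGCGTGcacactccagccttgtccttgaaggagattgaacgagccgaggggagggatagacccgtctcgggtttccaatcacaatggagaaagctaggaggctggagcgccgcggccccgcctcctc
Slc16a1: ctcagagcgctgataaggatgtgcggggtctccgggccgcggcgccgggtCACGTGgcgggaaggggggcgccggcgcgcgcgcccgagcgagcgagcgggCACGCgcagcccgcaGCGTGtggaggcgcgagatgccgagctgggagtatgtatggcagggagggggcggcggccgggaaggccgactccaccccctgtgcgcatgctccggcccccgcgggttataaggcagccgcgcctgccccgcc
Slc16a3: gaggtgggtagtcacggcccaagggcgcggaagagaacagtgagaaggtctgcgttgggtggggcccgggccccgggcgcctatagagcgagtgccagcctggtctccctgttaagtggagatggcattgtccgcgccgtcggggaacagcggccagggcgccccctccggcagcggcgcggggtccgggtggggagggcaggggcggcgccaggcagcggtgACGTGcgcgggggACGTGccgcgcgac
The Ldha window holds 5 matches of ACGTG, counting both strands, 4 of them in 2 copies of the palindrome CACGTG, and the Ldhb window holds 1 GCGTG and no ACGTG. Slc16a1 has 2 matches of ACGTG, both in 1 CACGTG, and 2 of GCGTG, and Slc16a3 has 2 of ACGTG. Of the 37 members with a promoter entry, 14 held ACGTG, 21 held GCGTG, 29 held either and 6 held CACGTG. Over 27025 promoter windows of the same length, the shares were 16.6%, 28.2%, 38.6% and 6.05%. A match is a description of the letters and no sign of binding.

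Ldha, the lactate dehydrogenase subunit that favours lactate formation, had 3340, 1620 and 1670 CPM in MEF, and in SSEA1+ cells 1340, 841 and 740 on day 3, 651, 627 and 503 on day 6, 895, 726 and 795 on day 9, 784, 880 and 690 on day 12 and 880, 1390 and 2320 in the iPS fraction. Its SSEA1- libraries had 486, 567 and 491 CPM on day 6 and 693, 969 and 1660 in the iPS fraction. It fell on all 4 days in both fractions, by 1.9 ± 0.32 in SSEA1+ and 2.1 ± 0.32 in SSEA1- cells on day 6 (edgeR adjusted p = 2.9e-05 and 1.6e-05), and both day 3 calls ended without MEF replicate 1. Ldhb, the subunit of oxidative tissues, had 23.2, 15.3 and 24.5 CPM in MEF, and in SSEA1+ cells 20.5, 29.5 and 29.8 on day 3, 73.7, 57.1 and 75.7 on day 6, 90.1, 63 and 86.5 on day 9, 232, 196 and 184 on day 12 and 668, 606 and 224 in the iPS fraction. From day 6 on every SSEA1+ library was above every MEF library. Ldhb rose by 1.71 ± 0.32, 1.93 ± 0.32, 3.28 ± 0.34 and 4.57 ± 0.36 from day 6 to iPS SSEA1+ cells, the last 23.8-fold (edgeR adjusted p = 9.7e-11). The SSEA1- fraction had 63, 58.7 and 78.4 CPM on day 6, 70.7, 54.6 and 83 on day 9, 78.7, 87.1 and 90.8 on day 12 and 93.7, 75.6 and 162 in the iPS fraction, with rises of 1.67 ± 0.32, 1.72 ± 0.32, 2.03 ± 0.33 and 2.39 ± 0.33.

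Slc16a3 (MCT4), the lactate exporter of glycolytic cells, fell further than any other member on days 3 and 6. It had 728, 399 and 393 CPM in MEF, then 5.16, 9.88 and 5.17 in SSEA1+ cells of day 3, 1.1, 6.89 and 4.75 on day 6, 20.6, 29.7 and 45.5 on day 9, 96.3, 101 and 79 on day 12 and 121, 209 and 238 in the iPS fraction. Among SSEA1- cells it had 2.43, 10.6 and 5.71 CPM on day 3, 0.155, 10.2 and 2.19 on day 6, 1.06, 13.6 and 6.1 on day 9, 9.02, 17.3 and 23.8 on day 12 and 49.5, 40.9 and 134 in the iPS fraction. All 30 sorted libraries were below all MEF libraries. The fall was 120-fold on day 6 in SSEA1+ cells (-6.9 ± 1.01, edgeR adjusted p = 4.2e-06) and 122-fold in SSEA1- cells (-6.93 ± 1.01, edgeR adjusted p = 7.5e-06; -8.69 without day 6 SSEA1- replicate 2). The iPS SSEA1+ difference of -1.42 ± 0.78 was no call (edgeR adjusted p = 0.11). In SSEA1- cells of days 3, 6 and 9 the highest library was replicate 2, as for the macrophage markers, whose score on day 6 was 0.68, 3.78 and 1.62. On day 6 replicate 1 had the lowest score and the lowest Slc16a3, with 0.155 CPM. In SSEA1- cells of day 12 and the iPS fraction Slc16a3 was highest in replicate 3, and in MEF in replicate 1. Replicate 2 held the most macrophage RNA in those groups too, and in the iPS fraction it had the least Slc16a3. The part of the macrophage markers was not tested. Slc16a1 (MCT1), the widespread transporter, had 46, 20.7 and 23.5 CPM in MEF and 179, 96.5 and 106 in SSEA1+ cells of day 3, 111, 98.7 and 96.6 on day 6, 142, 118 and 138 on day 9, 247, 149 and 133 on day 12 and 174, 151 and 107 in the iPS fraction. The SSEA1- values were 158, 89.9 and 103 CPM on day 3, 69.7, 83 and 90 on day 6, 60.2, 71.6 and 77.3 on day 9, 123, 82 and 61.4 on day 12 and 202, 339 and 84.8 in the iPS fraction. It rose in all 10 groups, between 1.2 ± 0.37 on day 9 in SSEA1- cells (edgeR adjusted p = 0.013) and 2.78 ± 0.39 in iPS SSEA1- cells (edgeR adjusted p = 8.3e-06), and no sorted library overlapped MEF. The day 9 SSEA1- call ended without MEF replicate 2 or MEF replicate 3.

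**Figure D3:**
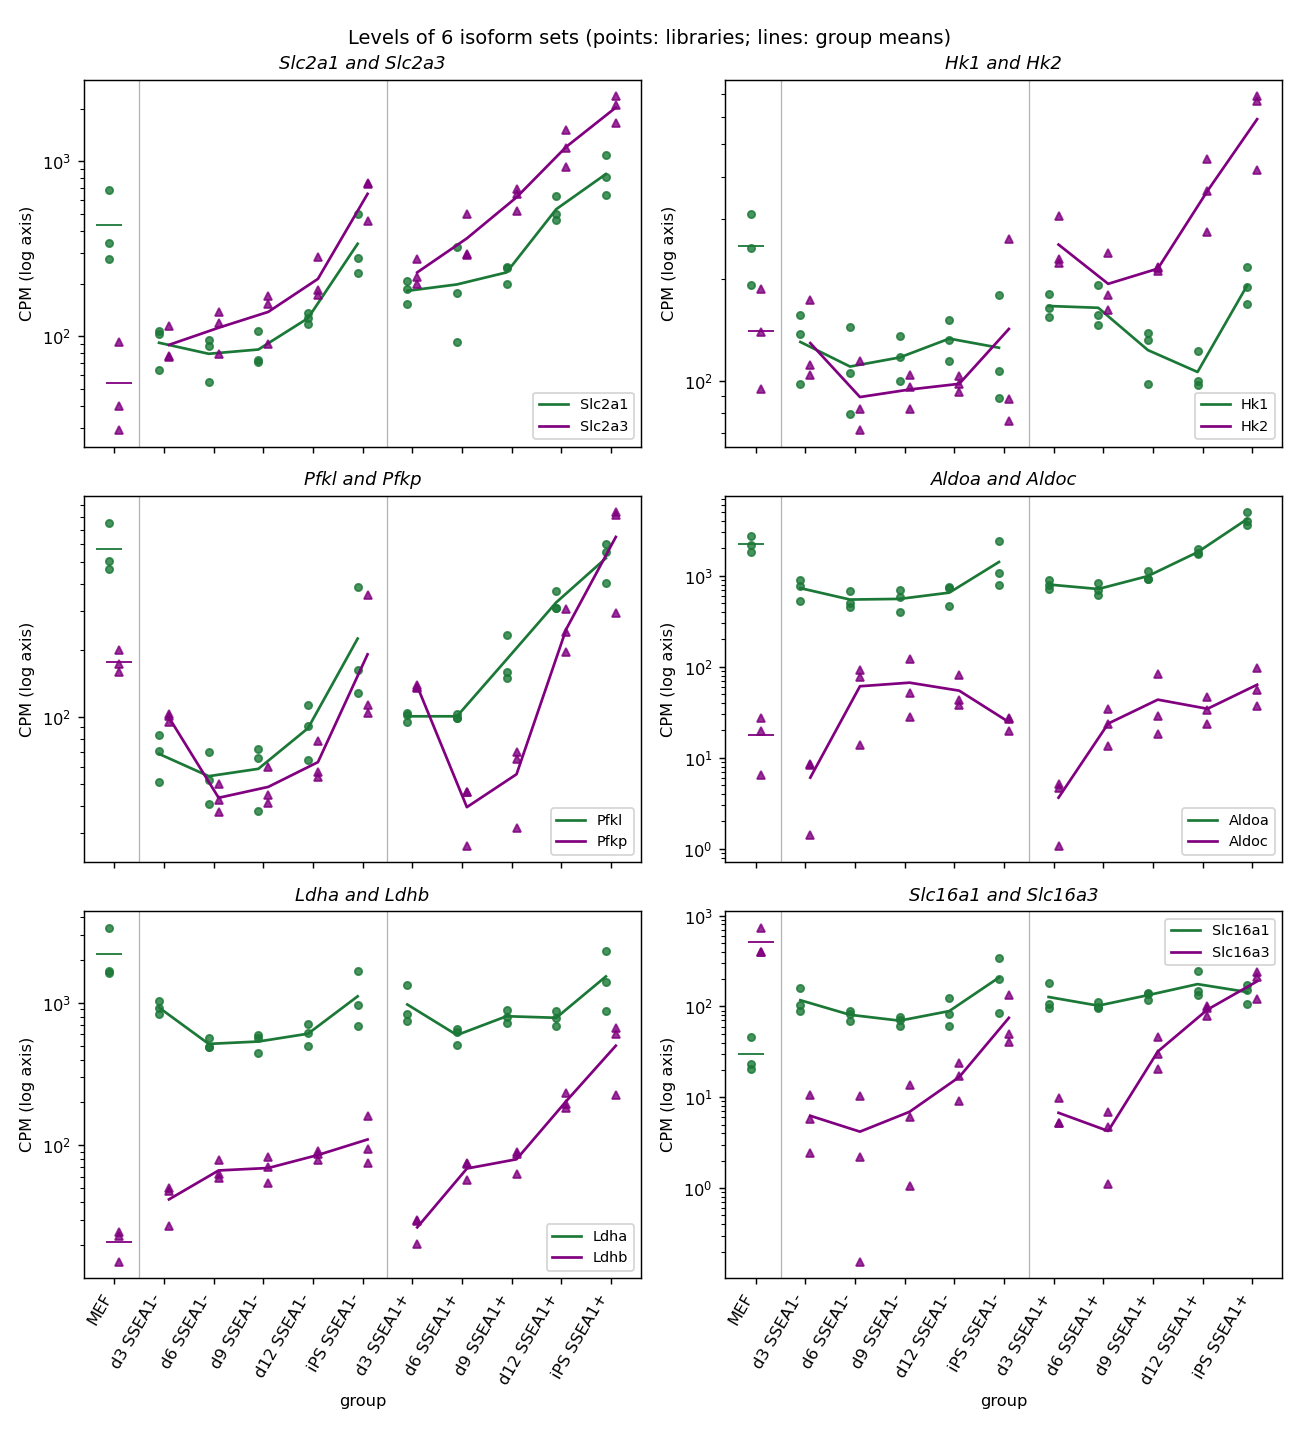
Levels in CPM on a log axis for 6 gene pairs over the 11 groups; points are libraries, lines join group means within a fraction and horizontal marks are MEF means. Slc16a3 drops from 393 to 728 CPM in MEF to at most 10.6 CPM on days 3 and 6, while Slc2a3 and Ldhb climb with stage in SSEA1+ cells.

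At the entry to mitochondria stand pyruvate dehydrogenase and the kinases that switch it off. Of the 8 genes of the complex and its regulators, 1 rose and 4 fell against MEF on day 3 in SSEA1+ cells, 0 and 4 on days 6 and 9, 1 and 3 on day 12 and 2 and 0 in the iPS fraction. Of all tested genes, 15.6%, 16.9%, 20.6%, 26.5% and 27.9% rose over these 5 stages and 16.7%, 16.6%, 18%, 20.2% and 22.5% fell. The 1 that rose on day 3 and the 2 in the iPS fraction were near these shares. Beside the counts of 0 by edgeR, 2 were higher on day 6, 3 higher on day 9 and 1 lower in iPS SSEA1+ cells at an unadjusted p under 0.05, and DESeq2 called 0 in each. The 4 that fell on day 3 were the kinases Pdk1, Pdk2 and Pdk4 and the phosphatase Pdp1, which acts against them. Pdk1, a kinase known as a target of hypoxia signalling, had 253, 109 and 153 CPM in MEF, 39, 51.6 and 44.2 in SSEA1+ cells of day 3, 80.5, 79 and 90.2 on day 6 and 160, 156 and 151 on day 12. For SSEA1- libraries the levels were 24.8, 37.1 and 34 CPM on day 3, 41.7, 50.8 and 64.6 on day 6, 46.6, 56.3 and 76.5 on day 9 and 62.3, 62 and 74.4 on day 12. Day 12 SSEA1+ libraries lay within the MEF range, while those of the SSEA1- fraction lay below it. Pdk1 fell by 2.43 ± 0.25 on day 3 in SSEA1- cells (edgeR adjusted p = 9e-08) and by 1.93 ± 0.25 in SSEA1+ cells (edgeR adjusted p = 8.6e-07). Pdk2 had 16.4, 26.5 and 32.7 CPM in MEF and 1.68, 3.78 and 4.81 in SSEA1+ cells of day 3, a fall of 2.88 ± 0.43 (edgeR adjusted p = 5.5e-06), and 3.24, 11.7 and 8.2 in SSEA1- cells, a fall of 1.7 ± 0.4.

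Pdk4, the kinase induced by fasting and fatty acids, had 7.21, 17.7 and 14.5 CPM in MEF, 1.46, 2.52 and 1.94 in SSEA1+ cells of day 3, 2.03, 4.14 and 3.73 on day 9, 12.6, 11.2 and 9.8 on day 12 and 31.1, 36.5 and 18.6 in the iPS fraction. It fell on day 3 (-2.74 ± 0.41, edgeR adjusted p = 7.2e-06) and rose in iPS SSEA1+ (1.14 ± 0.38, edgeR adjusted p = 0.011) and iPS SSEA1- cells (1.59 ± 0.38); the iPS SSEA1+ call ended without MEF replicate 1 or iPS SSEA1+ replicate 2. Pdk3 had 106, 65 and 71.1 CPM in MEF, 45, 34.9 and 35.3 in SSEA1+ cells of day 12 and 89.8, 89.9 and 105 in iPS SSEA1+ cells, and fell on days 9 and 12 by 1.07 ± 0.24 and 1.08 ± 0.24. Both calls ended without MEF replicate 1, and that of day 9 also without day 9 SSEA1+ replicate 3. Pdp1, the phosphatase that switches the complex back on, had 22, 16 and 26.6 CPM in MEF and 7.22, 8.62 and 6.5 in SSEA1+ cells of day 3. It fell on all 4 days in SSEA1+ cells (-1.53 ± 0.35 on day 3, edgeR adjusted p = 8e-04; on day 12 the change was -0.99 without MEF replicate 3) and in no SSEA1- group. The structural subunits went the other way or did not pass: Pdhb had 52.4, 47.2 and 36.9 CPM in MEF and 118, 96.5 and 102 in SSEA1- cells of day 3, a rise of 1.21 ± 0.21 (edgeR adjusted p = 6.4e-05) that slipped to 0.98 without MEF replicate 3. Pdha1 rose on day 3 in SSEA1+ cells (1.08 ± 0.21) and came under 2-fold (as low as 0.92) without MEF replicate 2, MEF replicate 3 or day 3 SSEA1+ replicate 1, and Dlat was 0.69 ± 0.14 above MEF there and passed nowhere.

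In the pentose phosphate branch, which makes NADPH and ribose, the entry enzyme G6pdx was the 1 gene of 4 that rose on day 3. Of all tested genes, 15.3% rose that day in SSEA1- and 15.6% in SSEA1+ cells. G6pdx had 95.7, 75.8 and 80.9 CPM in MEF, 397, 282 and 247 in SSEA1- cells of day 3 and 365, 236 and 189 in SSEA1+ cells, all above MEF. It rose by 1.88 ± 0.31 and 1.65 ± 0.3 (edgeR adjusted p = 2.6e-05 and 8.4e-05), and on day 6 SSEA1+ cells had 168, 107 and 78.4 CPM, overlapping MEF. Against MEF, Tkt and Taldo1 of the non-oxidative arm rose in iPS SSEA1+ cells and in none of the other 9 groups, by 1.08 ± 0.33 and 1.21 ± 0.41 (edgeR adjusted p = 0.0064 and 0.011), with Tkt under 2-fold without MEF replicate 2 (0.98) or iPS SSEA1+ replicate 3 (0.93). Pgd passed in none of the comparisons with MEF, with 0.89 ± 0.28 on day 3 in SSEA1+ cells. Hif1a, the oxygen-regulated subunit of the hypoxia factor, whose protein is set mainly by degradation, had 373, 222 and 292 CPM in MEF, 141, 132 and 139 on day 9, 157, 115 and 115 on day 12 and 143, 125 and 104 in iPS SSEA1+ cells. It fell in SSEA1+ cells from day 6 on, by 1.11 ± 0.2 on day 9, 1.2 ± 0.2 on day 12 and 1.25 ± 0.2 in the iPS fraction (edgeR adjusted p = 6.1e-05, 1.7e-05 and 7.6e-06), and passed in no SSEA1- group. The day 9 SSEA1+ change was -0.96 without MEF replicate 1. In SSEA1- cells the means were lower than in MEF too, at 171, 172, 179 and 162 CPM from day 3 to day 12 against 296. Between the fractions Hif1a was called at no stage.

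The 2 sorted fractions of the same stage drew apart with time. On day 3, 1 member was higher and 1 lower in SSEA1+ cells by the test, where 2.76% and 3.91% of all genes were. On day 6 it was 3 and 2, against 6.31% and 10.1%, and on day 9 8 and 5, against 11.5% and 13.7%. On day 12, 15 were higher and 3 lower, against 18% and 18%, and in iPS cells 14 and 3, against 16% and 21.3%. In a fit of the 2 iPS groups alone it was 6 and 4. The higher members thus made up 38.5% of the 39 on day 12 and 35.9% in iPS cells, above the share of all genes, and the lower members were below it. The iPS count of 17 became 10 without iPS SSEA1- replicate 1, 11 without replicate 2 and 20 without replicate 3, and the day 9 count of 13 became 8 without SSEA1- replicate 1 or SSEA1+ replicate 3 of that day. The 2 calls of day 3 became 4 without SSEA1- replicate 1 and 1 without SSEA1- replicate 2 or 3 or SSEA1+ replicate 1 or 3, and the 5 of day 6 became 3 without SSEA1- replicate 3. With replicate 2 of every group left out, since it held the most macrophage RNA in the SSEA1- groups, the counts over the 5 stages were 0, 3, 9, 13 and 6. The median difference of the 39 genes was 0.05, 0.13, 0.24, 0.48 and 0.61 over the 5 stages, and that of all tested genes -0.03, -0.01, 0.03, 0.06 and 0.06. The difference of all genes also ran with GC content. On day 12 its median was -0.1 for genes under 45% GC, 0.27 at 55% to 60% and 0.63 above. Members ranged from 39.2% (Pdp1) to 57.7% GC (Pkm). With the GC trend removed, 227 of the 243 calls of all comparisons held and 16 did not.

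Slc2a3 was higher in SSEA1+ cells at all 5 stages, by 1.37 ± 0.35 on day 3 (edgeR adjusted p = 0.011; up to 0.058 without single SSEA1- libraries of day 3), 1.7 ± 0.35 on day 6, 2.17 ± 0.35 on day 9, 2.51 ± 0.36 on day 12 and 1.64 ± 0.35 in iPS cells. On day 12 its 1520, 1190 and 928 CPM faced 283, 184 and 173 CPM in SSEA1- cells. Slc2a1 was higher from day 6 on, by 1.32 ± 0.36 on day 6 (a call lost without day 6 SSEA1- replicate 3 or SSEA1+ replicate 1), 1.46 ± 0.37 on day 9 and 2.07 ± 0.37 on day 12, when 634, 503 and 463 CPM faced 118, 127 and 136. Hk2 was higher by 1.11 ± 0.34 on day 6, a call that ended without SSEA1- replicate 2 (0.97) or 3 (1.06) or SSEA1+ replicate 1 (0.92), and by 1.89 ± 0.34 on day 12 and 2.06 ± 0.35 in iPS cells (edgeR adjusted p = 8e-05 and 2.7e-05). The iPS value was 2.83 without iPS SSEA1- replicate 3. Pfkl was higher by 1.63 ± 0.32 on day 9 and 1.88 ± 0.32 on day 12 (edgeR adjusted p = 0.00036 and 4.3e-05), with no overlap of the fractions in either. Hk1 (-0.32 ± 0.24 on day 12) and Pfkm (-0.19 ± 0.23) were called at none of the 5 stages of the sort.

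In iPS cells the called member with the smallest adjusted p was Ldhb, with 668, 606 and 224 CPM in SSEA1+ and 93.7, 75.6 and 162 in SSEA1- cells, a difference of 2.18 ± 0.32 (edgeR adjusted p = 5.3e-06). Gpi1 had 857, 1760 and 1050 CPM against 415, 447 and 701, a difference of 1.23 ± 0.22 that slipped to 0.81 without iPS SSEA1+ replicate 2. The lower members were regulators and minor isoforms. Pdp1 was lower in SSEA1+ cells from day 6 on, with 6.28, 6.94 and 8.29 CPM against 18.5, 26 and 22.3 on day 6 (-1.63 ± 0.35, edgeR adjusted p = 0.0012). It had 7.54, 7.49 and 9.48 CPM against 18.5, 29.1 and 17 on day 9. Late, it had 11.2, 8.46 and 9.94 against 20.5, 44.1 and 21.3 on day 12 and 15.8, 14.5 and 10.6 against 29.4, 74.3 and 21 in iPS cells (-1.61 ± 0.34; -0.9 without iPS SSEA1- replicate 2). In every SSEA1- group Pdp1 was highest in replicate 2, as were the macrophage markers. Their scores were 0.98, 4.34 and 1.78 on day 12 and 1.21, 4.99 and 1.07 in iPS SSEA1- cells. In MEF, replicate 2 had the highest macrophage score and the lowest Pdp1. The part of the macrophage markers in Pdp1 was not tested. Pdk4 was lower on day 9, with 2.03, 4.14 and 3.73 CPM against 13.2, 13.2 and 7.93 (-1.8 ± 0.39, edgeR adjusted p = 0.00088). Pdk2 was lower on day 9, with 7.33, 15.4 and 10.1 against 23.7, 30.5 and 21.4 CPM, and on day 12, with 7.13, 8.59 and 11.9 against 24.8, 28 and 32.4 CPM (-1.2 ± 0.4 and -1.62 ± 0.4). The day 9 call was lost without SSEA1- replicate 2 or SSEA1+ replicate 1 or 3. Eno2 was lower on day 12, with 6.15, 13.8 and 19.6 against 65.1, 50.4 and 54.8 CPM (-2.11 ± 0.59, edgeR adjusted p = 0.0043).

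Eno3 was lower on day 3, with 10.5, 16.4 and 14.3 CPM against 23, 37.8 and 39.9 (-1.29 ± 0.33, edgeR adjusted p = 0.012), and in iPS cells, with 11.4, 7.02 and 12.9 against 33.5, 16 and 19.1 (-1.13 ± 0.33). The first call was lost without SSEA1+ replicate 1 or 3 and the second without SSEA1- replicate 1 or SSEA1+ replicate 2. Pfkfb4 was lower in iPS SSEA1+ cells, with 4.73, 3.12 and 5.82 against 9.13, 10.5 and 11.6 CPM (-1.19 ± 0.25, edgeR adjusted p = 0.00038). Beside these differences, all 6 cell cycle markers (Mki67, Top2a, Ccnb1, Cdk1, Mcm7 and Pcna) were higher in SSEA1+ cells on day 12, with summed 2090 to 2750 CPM against 627 to 807, 5 of 6 were on day 9, 3 on day 6, 4 in iPS cells and none on day 3. Fibroblast markers were lower in SSEA1+ cells, 7 of 7 on days 9 and 12 and in iPS cells, 6 on day 6 and 3 on day 3, with summed CPM on day 12 of 176 to 310 against 4280 to 10000. The part of either in the members' differences was not tested.

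**Figure D4:**
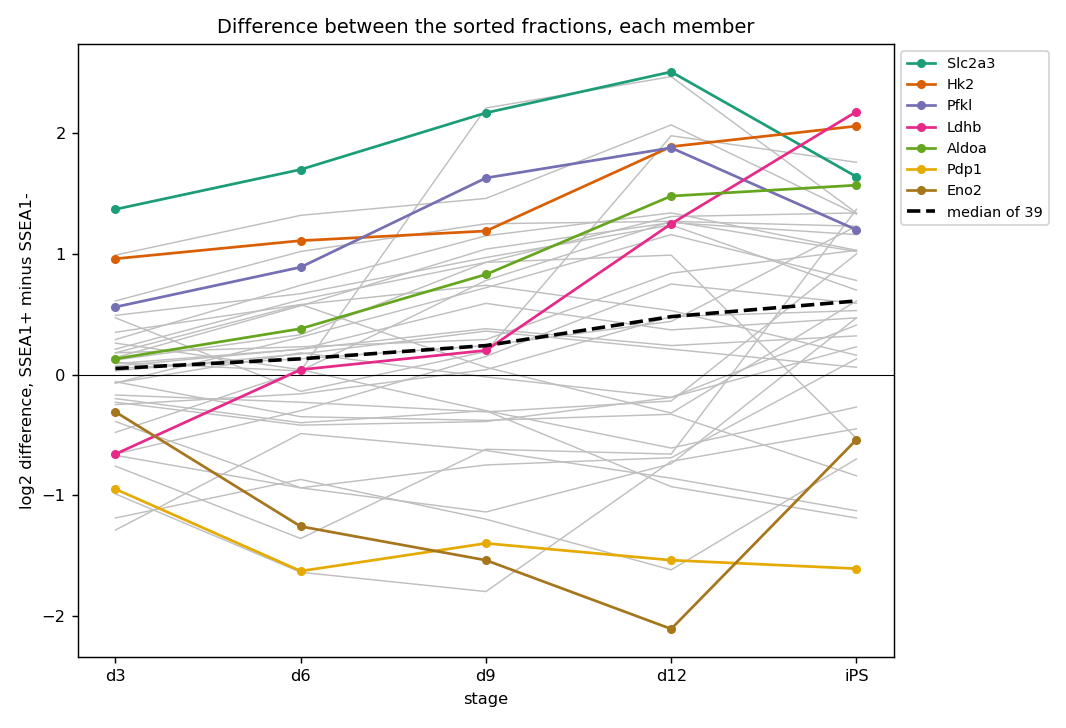
The vertical axis gives the log2 difference between SSEA1+ and SSEA1- cells for each of the 39 genes (grey lines, with 7 coloured) at the 5 stages on the horizontal axis; the dashed line is their median. The median goes from 0.05 on day 3 to 0.61 in iPS cells, and Slc2a3 lies above 1 at every stage.

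Whether the sort difference itself changed was tested as an interaction. From day 3 to day 12 it grew for 7 members and shrank for none by edgeR, where 6.21% of all genes grew and 7.93% shrank; 2 members shrank at an unadjusted p under 0.05, and DESeq2 gave 8 and 0. Ldhb had the smallest adjusted p, with a difference of -0.66 ± 0.31 on day 3 and 1.25 ± 0.31 on day 12, an increase of 1.91 ± 0.44 (edgeR adjusted p = 0.005) that held whichever of the 12 libraries was left out. On day 3 its libraries had 20.5, 29.5 and 29.8 CPM against 27.3, 48.2 and 50, and on day 12 232, 196 and 184 against 78.7, 87.1 and 90.8. Pgam1 had 145, 102 and 98.4 CPM against 121, 112 and 129 on day 3 and 166, 144 and 116 against 57, 67.4 and 66.3 on day 12, an increase of 1.22 ± 0.37 (edgeR adjusted p = 0.024). Aldoa had 906, 714 and 789 against 530, 774 and 895 CPM on day 3 and 1770, 1960 and 1720 against 469, 732 and 762 on day 12, an increase of 1.34 ± 0.42 (edgeR adjusted p = 0.027). Without day 3 SSEA1- replicate 3, day 12 SSEA1- replicate 1, day 3 SSEA1+ replicate 2 or 3 or day 12 SSEA1+ replicate 1, the count of 7 fell to 1 and the calls of Pgam1 and Aldoa ended, Aldoa's also without day 12 SSEA1+ replicate 2. It was 4 without day 3 or day 12 SSEA1- replicate 2 and 2 without day 12 SSEA1+ replicate 2. From day 12 to iPS, no member grew or shrank by edgeR, against 0.41% and 1.44% of all genes; at an unadjusted p under 0.05 it was 5 and 1, and by DESeq2 1 and 0.

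Within the SSEA1+ fraction the 4 steps from stage to stage had 5, 0, 4 and 8 calls. From day 3 to day 6, 3 members rose and 2 fell, against 3.21% and 1.25% of all genes. Ldhb rose by 1.37 ± 0.32, Aldoc by 2.72 ± 0.77 and Pdk2, from 1.68, 3.78 and 4.81 to 7.72, 12.5 and 16.2 CPM, by 1.83 ± 0.41 (edgeR adjusted p = 0.011, 0.036 and 0.0098), while Pfkp fell by 1.8 ± 0.39 and G6pdx by 1.16 ± 0.3. Leaving out 1 library ended all of these calls but that of Pfkp, and the count was 1 without day 3 replicate 1, 3 without day 6 replicate 2 and 2 without day 6 replicate 3. From day 6 to day 9, edgeR called none, against 0.998% and 0.0808% of all genes; at an unadjusted p under 0.05, 3 were higher and 0 lower, and DESeq2 gave 1 and 0, as did edgeR with the replicate block.

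From day 9 to day 12, 4 members rose and 0 fell by edgeR, against 5.37% and 3.45%, with 1 lower at an unadjusted p under 0.05 and 4 and 0 by DESeq2. Pfkp rose by 2.17 ± 0.39, Pdk4 by 1.76 ± 0.39 and Ldhb by 1.35 ± 0.31 (edgeR adjusted p = 0.001, 0.0046 and 0.0064), from values already given without overlap of the 2 groups. Slc2a1 was the other, with 1.2 ± 0.36, and lost its call in 5 of 6 leave-outs, all but that of day 12 replicate 3 (1.06 to 1.25). From day 12 to iPS SSEA1+ cells, 8 rose and 0 fell by edgeR, against 3.74% and 5.75%, with 0 lower at an unadjusted p under 0.05 and 10 and 0 by DESeq2. Pdk3 rose by 1.31 ± 0.24, from 45, 34.9 and 35.3 to 89.8, 89.9 and 105 CPM (edgeR adjusted p = 7e-04), Ldhb by 1.29 ± 0.31 and Aldoa by 1.21 ± 0.3. The other 5 were Pfkp, Pfkfb3, Pgk1, Pgam2 and Pdk4, and the count was 5 without day 12 replicate 2 or iPS replicate 2 and 4 without day 12 replicate 3. With replicate 2 of every group left out, edgeR called no member in any of these 4 steps.

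Ratios of isoforms within a library do not depend on its size. No GC correction was run for them, though the sort difference of all genes ran with GC content. For 10 ratios the SSEA1+ minus SSEA1- difference, averaged over 5 stages, was tested by permuting the sort labels within each stage over 30 libraries (two-sided permutation test, 100000 permutations, adjusted over the 10). The test treats the 30 libraries as separate. Same-numbered SSEA1+ libraries of days 6 and 9 deviated together, with correlations of 0.63, 0.55 and 0.39. If a replicate number marks 1 series followed over time, the p-values of all 10 ratios may be too small. The hexokinase ratio Hk2 to Hk1 was 1.2 higher on the log2 scale in SSEA1+ cells and higher at 5 of 5 stages (permutation p = 1e-05, the smallest these permutations can give; adjusted p = 3.3e-05). Its MEF mean was -0.86, and on day 12 SSEA1+ libraries had 2.21, 1.86 and 1.18 against -0.36, -0.3 and -0.63 in SSEA1- libraries. The minor enolases were lower relative to Eno1 in SSEA1+ cells at 5 of 5 stages, Eno2 by 2.28 (permutation p = 2e-05, adjusted p = 5e-05) and Eno3 by 1.84 (permutation p = 1e-05, adjusted p = 3.3e-05). Ratios with Pfkl or Aldoa as the second gene were also lower: Pfkm to Pfkl was lower by 1.26 (permutation p = 1e-05, adjusted p = 3.3e-05) and Aldoc to Aldoa by 1.27 (permutation p = 0.0011, adjusted p = 0.0018), each at 5 of 5 stages. Pdk3 to Pdk1 was lower by 0.79 (permutation p = 0.00056, adjusted p = 0.0011), with SSEA1+ higher at 1 stage, the iPS stage. A ratio alone does not tell which gene of the pair moved. By edgeR, Hk2 was called higher in SSEA1+ cells at 4 stages, Pfkl and Eno1 at 3, Aldoa at 2 and Pdk1 at 1. Eno2 and Eno3 were each called lower at 2 stages, and Hk1, Pfkm, Aldoc and Pdk3 were called at none. The lower Pfkm to Pfkl and Aldoc to Aldoa ratios thus overlap with the Pfkl and Aldoa differences already given.

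The transporter ratios were less firm when replicates were left out. Slc2a3 to Slc2a1 was 0.47 higher in SSEA1+ cells, at 5 of 5 stages (permutation p = 0.0083, adjusted p = 0.012), and fell short without replicate 2 of every group (0.3, adjusted p = 0.13) or replicate 3 (0.45, adjusted p = 0.066). With labels permuted within same-numbered pairs (the replicate block), its permutation test gave an adjusted p of 0.0028. In MEF this ratio was -2.88, -3.24 and -3.08, and every sorted library was at -0.49 or above, so both fractions left the MEF ratio together. Slc16a3 to Slc16a1 was 1.19 higher in SSEA1+ cells at 5 of 5 stages (permutation p = 0.027, adjusted p = 0.034), and without replicates 1, 2 or 3 gave adjusted p of 0.1, 0.05 and 0.079. With the replicate block its permutation test gave an adjusted p of 0.0028. Slc16a3 has 56.6% GC and Slc16a1 42.9%. On day 6 the median sort difference of all genes was 0.23 at 55% to 60% GC and -0.26 under 45%. The part of GC content in the Slc16a3 to Slc16a1 ratio was not tested. In MEF this ratio was 3.98, 4.26 and 4.06, on day 6 -8.18, -3.02 and -5.3 in SSEA1- and -6.55, -3.82 and -4.32 in SSEA1+ cells, and in iPS SSEA1+ cells -0.52, 0.47 and 1.15. Pfkp to Pfkl was 0.44 lower in SSEA1+ cells (permutation p = 0.044, adjusted p = 0.048), higher at 2 of 5 stages, with an adjusted p of 0.55 without replicate 1 and 0.11 with the replicate block. Ldhb to Ldha did not pass (0.27, permutation p = 0.34, adjusted p = 0.34). It went from -7.16, -6.71 and -6.08 in MEF to -0.4, -1.2 and -3.37 in iPS SSEA1+ cells. Its difference was lower in SSEA1+ cells at 3 of the 5 stages, with overlapping libraries in each of those.

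**Figure D5:**
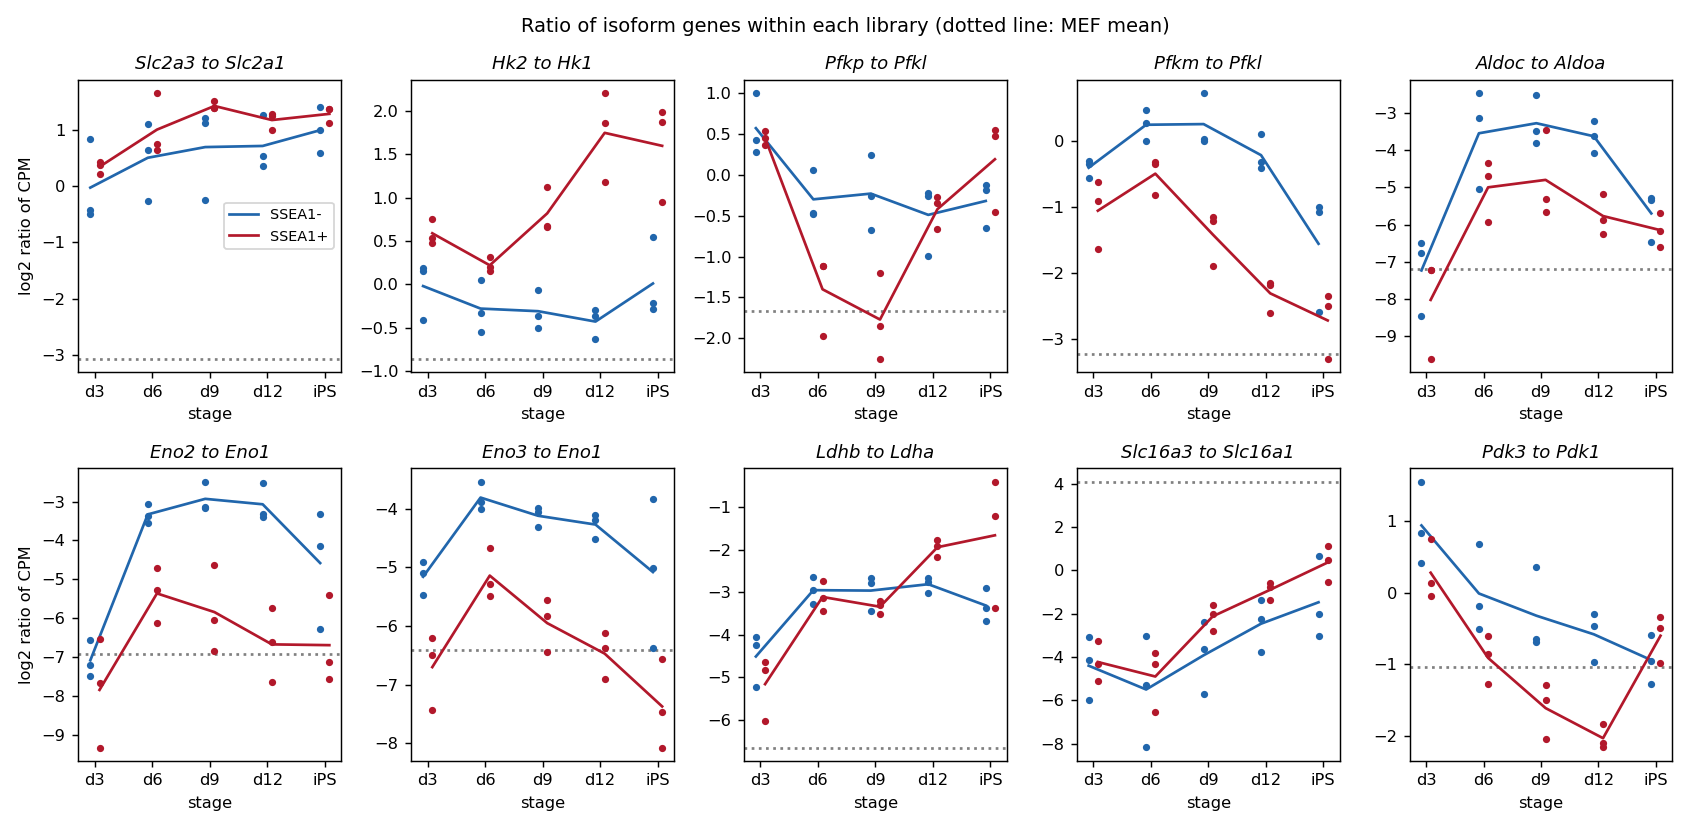
Log2 ratios of CPM of 10 gene pairs (vertical axes differ between panels) at 5 stages; points are libraries, lines join the means of SSEA1- (blue) and SSEA1+ (red) cells and the dotted line is the MEF mean. The Hk2 to Hk1 lines part from day 3 on, and the Slc2a3 to Slc2a1 and Slc16a3 to Slc16a1 ratios of both fractions lie far from MEF early.

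Of 23 other hypoxia pathway genes, 1 rose and 11 fell against MEF on day 3 in SSEA1+ cells, 2 and 11 on days 6 and 9, 2 and 10 on day 12 and 3 and 6 in the iPS fraction. In SSEA1- cells it was 1 and 11, 1 and 10, 1 and 11, 1 and 10, and 2 and 5. Of all tested genes, 15.6%, 16.9%, 20.6%, 26.5% and 27.9% rose over the SSEA1+ stages and 16.7%, 16.6%, 18%, 20.2% and 22.5% fell. Over the SSEA1- stages 15.3%, 15.8%, 14.9%, 17% and 19.1% rose and 14.9%, 12.4%, 11.6%, 11.1% and 7.7% fell. The 6 hypoxia pathway genes that fell in iPS SSEA1+ cells were near the share of that group. The summed level of the 23 genes was 3040 to 4210 CPM in MEF, 943 to 1040 on day 3 in SSEA1+ cells and 1460 to 2530 in iPS SSEA1+ cells. P4ha1, a collagen prolyl hydroxylase subunit, went from 1130, 933 and 866 CPM in MEF to 123, 161 and 141 in iPS SSEA1+ cells (-2.79 ± 0.22, edgeR adjusted p = 9.3e-11). P4ha2, another such subunit, fell by 3.18 ± 0.31 and Arnt2, a partner of hypoxia factors, by 2.14 ± 0.28.

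Of 43 other genes of glucose and pyruvate metabolism, 42 were tested. In SSEA1+ cells 6 rose and 7 fell on day 3, 6 and 7 on day 6, 7 and 8 on day 9, 9 and 8 on day 12 and 15 and 5 in the iPS fraction. Of all tested genes, 15.6%, 16.9%, 20.6%, 26.5% and 27.9% rose over these stages and 16.7%, 16.6%, 18%, 20.2% and 22.5% fell. The day 3 counts were near these shares. The median change of the 42 genes was 0 on day 3 and 0.34 in iPS SSEA1+ cells, so the early fall of the members was not seen in their median. Pfkfb1, the liver form of the Pfkfb family, went from 4.65, 3.81 and 4.45 CPM in MEF to 23.8, 20.8 and 26.3 in iPS SSEA1+ cells (2.46 ± 0.3, edgeR adjusted p = 9.9e-08). Gpd1l, a glycerol phosphate dehydrogenase-like enzyme, rose by 1.25 ± 0.15, and H6pd, the glucose-6-phosphate dehydrogenase of the endoplasmic reticulum, went from 172, 149 and 186 to 44.9, 29.6 and 34.5 CPM, a fall of 2.22 ± 0.27 (edgeR adjusted p = 1.5e-07).

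The citrate cycle takes up the product of pyruvate dehydrogenase. Of its 16 genes, edgeR called 0 as lower than MEF in any of the 10 groups, where 7.7% to 22.5% of all tested genes fell. DESeq2 also called 0, and at an unadjusted p under 0.05, between 0 and 3 a group were lower. Among those that rose, there were 2, 1, 1, 2 and 2 over the SSEA1+ stages, where 15.6%, 16.9%, 20.6%, 26.5% and 27.9% of all genes rose. Over the SSEA1- stages there were 4, 2, 1, 1 and 0, where 15.3%, 15.8%, 14.9%, 17% and 19.1% of all genes rose. The last 0 stood beside 4 higher at an unadjusted p under 0.05 and 0 by DESeq2. Their median change was 0.65 on day 3 in SSEA1+ cells, where that of the 39 members was -0.85. Idh3g, a subunit of isocitrate dehydrogenase, went from 93.1, 72.1 and 77.9 CPM in MEF to 321, 319 and 356 in iPS SSEA1+ cells (2.03 ± 0.24, edgeR adjusted p = 7.9e-08). Suclg2, of succinate-CoA ligase, went from 34.8, 28.4 and 28.3 to 96.6, 95.7 and 69.1 (1.51 ± 0.16, edgeR adjusted p = 1.3e-08).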

How the data were processed

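RNA of 33 libraries was sequenced from poly-A selected RNA with a directional kit, per the labels' protocols. The authors deposited 1 file of read counts per gene for each library, whole numbers that are not normalized. Tools listed in the submitters' processing notes are HTSeq 0.6.0, STAR 2.3.0 and Picard 1.100, with the mouse build mm9; the annotation release and the strand setting of the counting are not given in the sources used here. Reads of a gene and of an antisense neighbour can therefore not be told apart for 9 members (Slc2a1, Gpi1, Pfkm, Pfkp, Aldoa, Tpi1, Pfkfb2, Pdha1 and Hif1a), and values of 9 members with near-identical gene copies (Gapdh with 75, Eno1, Pgk1, Ldha, Gpi1, Pgam1, Pkm, Ldhb and Pdhb) are uncertain. Entries that name no gene were left out: of gene, unassigned and ambiguous reads together, those outside genes made up 4.42% to 15.51% and ambiguous ones 2.41% to 3.15%.

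One edgeR model (4.0.16, R 4.3.3) of all 11 groups was fitted after filterByExpr, with TMM scaling and robust quasi-likelihood dispersion, to 17326 genes; p-values were adjusted over all of them. It was checked on simulated data. Ratios were tested in Python 3.11.15. Levels between genes were compared per kilobase of exon from GENCODE M21 models. Up to 3 members per direction and comparison are named, by smallest adjusted p where the higher group averaged 10 CPM or more, besides the isoform sets; of other lists, up to 3 genes. The members and lists were chosen with earlier results of these data known. Replicate numbers in the labels appeared to pair libraries in the sort comparisons of days 3 to 12, where every same-numbered pair deviated together (correlations of 0.18 to 0.56), in the first 3 steps of SSEA1+ cells and in days 3, 6 and 12 of SSEA1+ cells against MEF. Alternatives were DESeq2 (1.42.0), its size factors in edgeR, no filter, a GC correction, the replicate block, the 2 groups alone and leaving out each library; leaving out the libraries that stood apart was chosen after seeing the data.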

Additional observations from a re-analysis of the deposited data

Results flagged for a closer look

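For 7 members the difference between SSEA1+ and SSEA1- cells was larger on day 12 than on day 3 by a test of the change itself (edgeR adjusted p under 0.05). The increase on the log2 scale was 1.91 for Ldhb (edgeR adjusted p = 0.005), 1.75 for Taldo1 (edgeR adjusted p = 0.035) and 1.52 for Pfkp (edgeR adjusted p = 0.049). It was 1.41 for Pgk1 (edgeR adjusted p = 0.044), 1.34 for Aldoa (edgeR adjusted p = 0.027), 1.32 for Pfkl (edgeR adjusted p = 0.041) and 1.22 for Pgam1 (edgeR adjusted p = 0.024). Leaving out 1 of the 12 libraries ended the call of Taldo1 in 8, Pfkp in 11, Pgk1 in 9 and Pfkl in 9 cases, and that of Ldhb in none.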

How the results depend on the processing

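None of the 243 called changes turned its direction under the alternatives run, and 169 of them held whichever library was left out. The alternatives used the same counts in which these changes were picked as at least 2-fold, so a reversal was unlikely from the start. Counts of called members moved by over 1.5 times as follows. The count in iPS SSEA1- cells against MEF, 9, was 15 with the GC correction, 16 without MEF replicate 1 and iPS SSEA1- replicate 3, and 7 to 17 with a library left out. The sort counts of days 3, 6 and 9 and of iPS cells were 1 to 4, 3 to 6, 8 to 13 and 10 to 20 with a library left out, and the iPS count was 10 in a fit of the 2 groups alone. Without replicate 2 of every group the sort counts of day 3, day 6 and iPS were 0, 3 and 6. From day 3 to 6 in SSEA1+ cells it was 2 in the 2 groups alone, 1 to 5 with a library left out and 0 without replicate 2; from day 6 to 9 it was 1 by DESeq2 and 1 with the replicate block. From day 9 to 12 and from day 12 to iPS it was 0 without replicate 2, and 3 to 5 and 4 to 8 with a library left out. The change of the sort difference from day 3 to 12 gave 1 to 6 with a library left out and 0 without replicate 2; that from day 12 to iPS gave 1 each with DESeq2's size factors, DESeq2, the replicate block and the GC correction, 0 to 4 with a library left out, and 4 without MEF replicate 1 and iPS SSEA1- replicate 3. The replicate block moved no other count by over 1.5 times.

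Among ratios, Slc2a3 to Slc2a1 was 0.3 to 0.67 with a replicate left out; Pfkp to Pfkl was -0.44 with the replicate block (permutation test, adjusted p = 0.11) and -0.61 to -0.12 with a replicate left out; Slc16a3 to Slc16a1 was 1.03 without the iPS stage (adjusted p = 0.091) and 0.85 to 1.39 with a replicate left out; and Ldhb to Ldha was -0.08 without the iPS stage, the reverse of its sign. The cause was not tested, except that leaving libraries out leaves fewer samples. Depth limits Pgam2, with 0.409 to 3.99 CPM over all libraries and 8 counts in its lowest, and the lowest library of Slc16a3, with 4 counts at 0.155 CPM.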
